A study of Arabidopsis thaliana with 12 samples.

Results

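The comparison described here is that of Arabidopsis thaliana seedlings carrying upf3-1, a mutant allele of UPF3, with wild type seedlings. It takes 4 of the 12 RNA-seq libraries of the series, 2 per genotype. The deposited table holds 1 pooled RPKM column (reads scaled to gene length and library total) for each of the 6 groups, so the members were the upf3-1 column and the wild type column. Of 33602 loci, 14079 reached 5 RPKM on average over all 6 columns and were described. The upf3-1 seedlings (genotype upf3-/- in the labels) and the wild type seedlings were of the Columbia ecotype, 11 days old, untreated, and grown in continuous light on half-strength MS medium with 2% sucrose. The labels name 1 allele, and do not say whether the libraries of a genotype came from separate plants or sowings. Both contrasts set beside it share neither column with it. The first is lba1 upf3-1 (upf1-/- upf3-/-) against lba1 (upf1-/-), both untreated, which differ in the same UPF3 allele on a UPF1 mutant background. The second is wild type kept for 4 h in liquid MS medium with cycloheximide at 10 µg/ml against wild type kept for 4 h in that medium alone (mock).

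Nonsense-mediated decay (NMD) degrades mRNAs on which a ribosome stops in an unusual context, such as far upstream of an exon junction or before a long 3′ untranslated region. UPF1 is the RNA helicase at its core, and UPF2 and UPF3 link it to the exon junction complex that splicing leaves on the mRNA. Cycloheximide stops translation, on which NMD depends, and also affects every other process that needs new protein.

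With 1 column per group there is no spread between replicates, so no SD and no p-value can be given, and each difference below is between these columns only. Differences are of log2(RPKM + 0.5), upf3-1 minus wild type, which damps the differences of scarce genes. A gene is called higher or lower where these values differ 2-fold or more, which is a size rule and carries no test. The low values of transfer RNA loci implied 91.5 M reads for upf3-1 and 83.1 M for wild type. The ± values are half-widths of 95% intervals from those depths and cover counting error only. Markers of root tissue summed to 46.0 RPKM in upf3-1 and 45.8 RPKM in wild type over 13 genes. The 23 light harvesting and Rubisco genes summed to 43495 RPKM in upf3-1 and 40878 RPKM in wild type, and the 8 seed storage genes to 15.3 RPKM in upf3-1 and 21.4 RPKM in wild type. One seed storage gene was listed at 0 in each column, and none of the other markers were. The members of the root list differed in either direction, from −0.61 for PLT1 to 0.67 for EXPA18, with SCR, the most abundant, at 14 RPKM in upf3-1 and 17.8 RPKM in wild type (−0.34). In whole seedlings, fewer cells of a type and less RNA per cell cannot be told apart.

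UPF3 itself was at 4.95 RPKM in upf3-1 and 13.1 RPKM in wild type, a log2 difference of −1.32 ± 0.10. Transcript of the locus was therefore lower but still counted in the mutant, and these values do not say on which side of the lesion it lies. In the other pair of columns it was at 4.82 RPKM in lba1 upf3-1 and 22.2 RPKM in lba1. The 5 described genes on either side of UPF3 differed by −0.78 to 0.52 on the log2 scale, none of them by 2-fold. Around the locus, UPF3 was thus the only gene past the 2-fold rule among these 11.

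Of the 12 factors of NMD, translation termination and the exon junction complex, 2 were higher in upf3-1 (16.7%, beside 3.81% of all described genes) and UPF3 itself was the 1 lower gene (8.33%, beside 0.547%). The list median was 0.01, beside 0.05 for all described genes. ERF1-1, which encodes a translation release factor, was one of the higher genes, at 52.6 RPKM in upf3-1 and 23.0 RPKM in wild type (log2 difference 1.18 ± 0.05). Its relatives ERF1-2 and ERF1-3 were at −0.37 and −0.14. UPF1 was at 24.6 against 20.7 RPKM (0.24 ± 0.04), and AT2G39260, annotated as UPF2, at 8.58 against 10.1 RPKM (−0.22 ± 0.07). The core exon junction factors EIF4A-III, MAGO and Y14 lay between −0.21 and 0.04. None of the 13 genes of mRNA decapping and decay differed by 2-fold, the largest differences being those of RRP44A (−0.41), a nuclease gene, and of the decapping factor VCS (−0.40).

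Across all genes described, 536 were higher in upf3-1 (3.81%) and 77 were lower (0.547%), so 87.4% of the 613 genes past 2-fold were higher. A 4-fold difference was reached by 37 higher genes and 5 lower genes. The middle 90% of the differences lay between −0.54 and 0.90 and the median was 0.05. Of the 613 genes, 611 had an annotated length, and the counting interval excluded 0 for all 611 and lay beyond 2-fold for 446. The higher genes were found at every level of expression. Among genes averaging 100 RPKM or more over both columns, 27 of 703 were higher (3.84%), and among those between 10 and 30 RPKM 157 of 5607 were (2.80%). Of the 1641 genes below 5 RPKM in both columns' mean, which entered through another column, 128 were higher (7.80%). At the 2-fold limit, AT1G63750 at 1.0002 counted as higher and CIPK20 at 0.9984 did not, and CYP96A12 at −1.0023 counted as lower and AT3G51720 at −0.9993 did not.

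**Figure D1:**
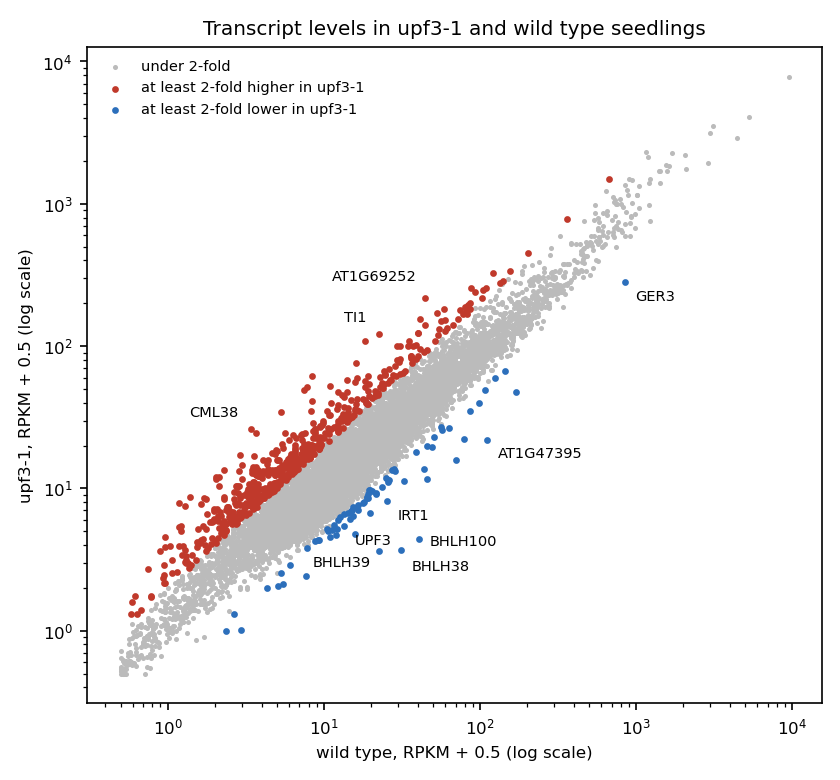
Level of each of the 14079 described genes in upf3-1 (vertical axis) and in wild type (horizontal axis), RPKM + 0.5 on log scales, 1 pooled column each. Red points (536) are at least 2-fold higher and blue points (77) at least 2-fold lower in upf3-1, and the iron genes BHLH38, BHLH39 and BHLH100 lie farthest below the diagonal.

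The highest gene was CML38, a calmodulin-like calcium sensor induced by wounding and low oxygen, at 25.6 RPKM in upf3-1 and 2.94 RPKM in wild type (log2 difference 2.92 ± 0.17). AT4G15260, annotated as a UDP-glycosyltransferase, was at 61.3 against 7.96 RPKM (2.87). ACS11, an enzyme of ethylene synthesis, was at 7.42 against 0.688 RPKM (2.74), and its relative ACS8 at 4.06 against 0.459 RPKM (2.25). The list also held YUC5, an enzyme of auxin synthesis, at 8.12 against 1.23 RPKM (2.32), which entered through its cycloheximide column (60.6 RPKM). It further held JAX1, a jacalin-like lectin that restricts potexviruses, at 11.6 against 1.55 RPKM (2.56). Most of these genes were therefore scarce in wild type. Among abundant ones, the trypsin inhibitor gene TI1 stood at 120 RPKM in upf3-1 against 22.2 RPKM in wild type (2.41), the thionin gene AT1G66100 at 107 against 18 RPKM (2.54) and the cold-induced gene KIN2 at 155 against 41.0 RPKM (1.91). The non-coding RNA AT1G69252 reached 218 RPKM in upf3-1 against 44.2 RPKM in wild type (2.29 ± 0.05). Further genes of unassigned or general annotation among the 20 highest were AT2G29170 (2.72), AT3G45443 (2.70), AT1G18773 (2.55), AT2G01300 (2.50), AT5G02650 (2.29) and AT1G72416 (2.29). AT4G35295 (2.53) belongs to them too, but 84.8% of its exons are covered by another locus and the library kit does not mark strand. This gene entered through its lba1 upf3-1 column (37.6 RPKM).

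The lowest genes in upf3-1 were genes of iron acquisition. In Arabidopsis, iron shortage induces the transcription factors BHLH38, BHLH39, BHLH100 and BHLH101, which pair with FIT (FRU in the annotation) to switch on IRT1, the main iron transporter of the root, and the ferric reductase FRO2. BHLH100 was at 3.89 RPKM in upf3-1 and 40.4 RPKM in wild type (log2 difference −3.22 ± 0.13). BHLH38 was at 3.18 against 30.7 RPKM (−3.08 ± 0.15), BHLH39 at 3.16 against 22.2 RPKM (−2.63 ± 0.14) and BHLH101 at 4.27 against 15.3 RPKM (−1.73 ± 0.14). All 4 of these partner factors were thus lower, while their partner FRU was at 4.33 RPKM in upf3-1 and 3.51 RPKM in wild type. Another locus covers 35.7% of BHLH38, and BHLH38, BHLH39 and BHLH100 are close relatives among which reads could be shared.

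Of 19 listed iron regulators, 14 were described, 8 of them lower and none higher, with a median of −1.18. Besides the bHLH genes these were AT1G47395 (21.5 RPKM in upf3-1, 111 RPKM in wild type, −2.34), AT1G47400 (15.4 against 70.0 RPKM, −2.15) and AT2G30766 (34.2 against 86.1 RPKM, −1.32), which the annotation calls uncharacterized proteins. BTS, a ubiquitin ligase that restrains the iron shortage response, was at 26.6 against 55.6 RPKM (−1.05). The factors that act upstream of these genes showed smaller differences of either sign. ILR3 was at 35.5 RPKM in upf3-1 and 31.9 RPKM in wild type (0.15), BHLH104 at 32.5 against 25.3 RPKM (0.36), BHLH115 at 30.9 against 36.3 RPKM (−0.23) and BHLH121 at 21.3 against 17.3 RPKM (0.29). PYE was at −0.59 and AT1G18910 at 0.57.

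Of 26 listed genes of iron uptake, transport and storage, 17 were described, and 4 were lower and none higher (median −0.41). IRT1 was at 7.60 RPKM in upf3-1 and 25.1 RPKM in wild type (−1.66 ± 0.09), and NAS4, which makes the metal chelator nicotianamine, at 13.1 against 43.7 RPKM (−1.70 ± 0.08). ZIF1, a vacuolar transporter, was at 9.76 against 23.1 RPKM (−1.20), and OPT3, which loads iron into the phloem, at 49.0 against 108 RPKM (−1.13). Both lists together held 12 of the 77 lower genes, 38.7% of their 31 described members, beside 0.547% of all genes. The ferritin genes, which store iron, were lower by less than 2-fold, with FER1 at 50.9 against 67.7 RPKM (−0.41), FER3 at −0.63 and FER4 at −0.17. ORG1 (−0.85), NRAMP4 (−0.82) and FRO3 (−0.70) also stayed within 2-fold, and NAS1 (0.21), NRAMP3 (0.14), NAS3 (0.12) and YSL3 (0.80) were above 0.

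The 14 iron genes under the level filter are not in these counts. Among them FRO2 was at 1.35 RPKM in upf3-1 and 9.29 RPKM in wild type (−2.41 ± 0.12), CYP82C4 at 0.591 against 9.56 RPKM (−3.20 ± 0.17) and NAS2 at 1.03 against 3.90 RPKM (−1.52 ± 0.21). FRD3 (0.08), VTL2 (0.07) and VTL1 (−0.09) were close to 0. FRO2, IRT1, BHLH38, BHLH39, BHLH100 and BHLH101 were therefore lower in upf3-1, FRU was not (0.27), and the genes of the upstream factors ILR3, BHLH104, BHLH115 and BHLH121 differed by less than 0.4 on the log2 scale in either direction.

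Of these 12 genes all but OPT3 (−0.60) and BTS (−0.62) were also at least 2-fold lower on the lba1 background. BHLH100 was at 4.93 RPKM in lba1 upf3-1 and 26.7 RPKM in lba1 (log2 difference −2.33), BHLH38 at 4.54 against 23.4 RPKM (−2.24) and BHLH39 at 2.99 against 22.3 RPKM (−2.71). IRT1 was at 0.236 against 16.5 RPKM (−4.53), BHLH101 at 0.964 against 14.4 RPKM (−3.35) and AT2G30766 at 5.98 against 66.9 RPKM (−3.38). The median of the 14 regulators was −1.48 in that contrast and 7 of them were lower, where 22.1% of all genes were. The uptake list split there, with 5 of 17 genes lower (beside 22.1% of all genes) and 7 higher (41.2%, beside 17.7%). Among the higher ones were NRAMP3 (2.59), YSL1 (2.39) and FER1 (1.31). Markers of root tissue moved with this contrast, summing to 10.8 RPKM in lba1 upf3-1 and 60.5 RPKM in lba1 over 13 genes, and the 23 light harvesting and Rubisco genes summed to 1548 RPKM in lba1 upf3-1 and 44341 RPKM in lba1, with no marker at 0. Their part in the iron result on this background was not tested. In lba1 alone, set beside the wild type column used above, BHLH100 was at 26.7 RPKM in lba1 and 40.4 RPKM in wild type (−0.58), BHLH38 at −0.39, BHLH39 at 0.01 and BHLH101 at −0.09. AT1G47400 was at −0.64, IRT1 at −0.59, OPT3 at −0.58 and NAS4 at −1.02 in lba1 minus wild type, with list medians of −0.09 for the regulators and −0.58 for the uptake genes. In the liquid medium the bHLH genes were scarce, with BHLH100 at 1.66 RPKM with cycloheximide and 0.156 RPKM in mock, and BHLH38 at 0.126 RPKM with cycloheximide and 0.378 RPKM in mock. AT1G47400 was at 113 RPKM with cycloheximide and 3.94 RPKM in mock (4.67).

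**Figure D2:**
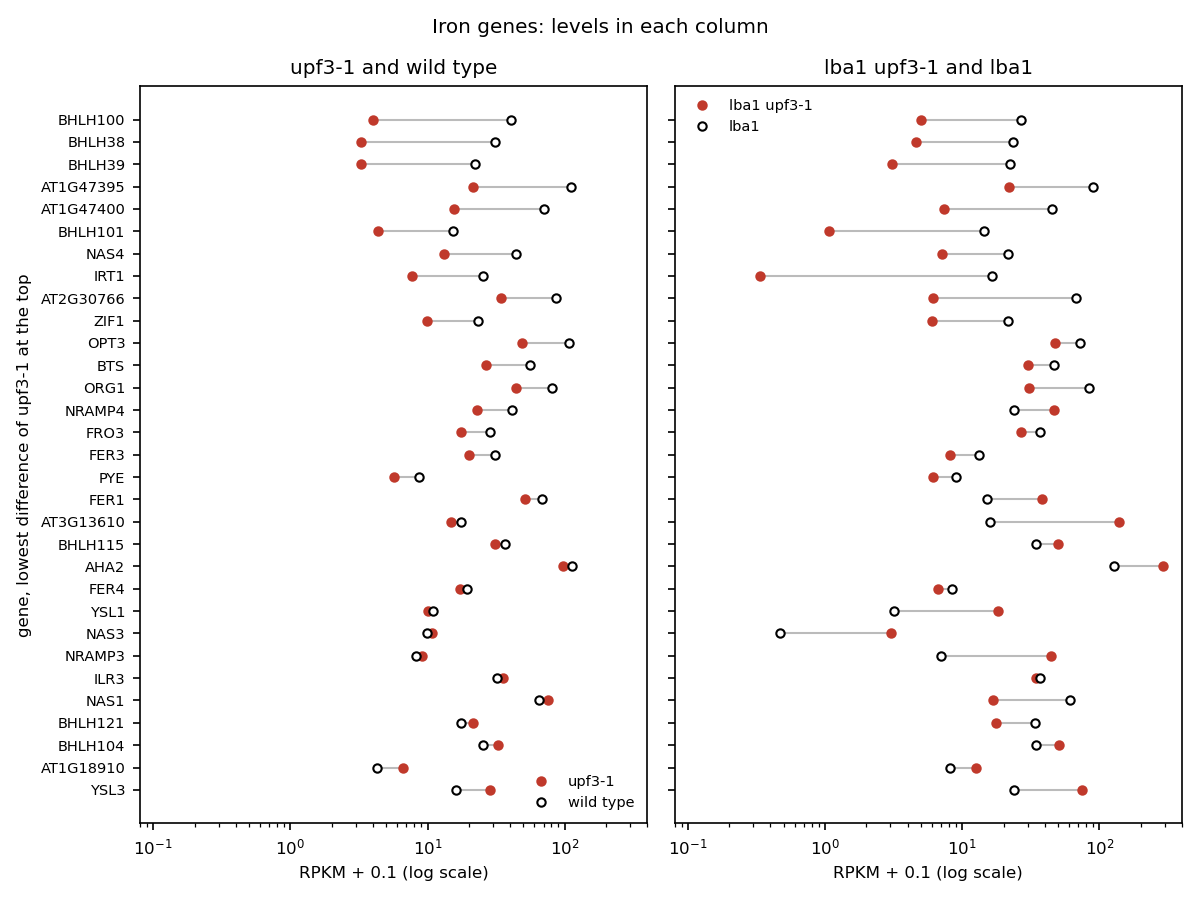
Levels of the 31 described iron genes, RPKM + 0.1 on a log scale, in upf3-1 (filled) and wild type (open) on the left and in lba1 upf3-1 (filled) and lba1 (open) on the right, 1 pooled column each. Genes run down the page by their difference in upf3-1, and the top 12 rows, BHLH100 to BTS, are the 12 that were at least 2-fold lower.

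Several of the other lowest genes encode defence peptides or cell wall proteins. GER3, a germin-like protein, was at 281 RPKM in upf3-1 and 851 RPKM in wild type (−1.60 ± 0.02), and at 6.59 RPKM in lba1 upf3-1 against 329 RPKM in lba1. Of the plant defensins, PDF1.2 and PDF1.2c were at 21.8 against 78.4 RPKM (−1.82) and at 19.1 against 48.6 RPKM (−1.33), and the defensin-like gene AT1G13609 at 47.2 against 170 RPKM (−1.84). These PDF1.2 copies are nearly identical, and PDF1.2b stood at 46.3 against 23.8 RPKM (0.94), and how reads were assigned among them is not given. AT3G16670, of the Ole e 1 family, was at 10.8 against 32.3 RPKM (−1.54) and the arabinogalactan protein gene AGP31 at 66.3 against 144 RPKM (−1.11). AT2G14247 (−1.98) and AT4G19430 (−1.34) are uncharacterized in the annotation, and AT2G46630 (−1.55) is named there a serine/arginine repetitive matrix protein. ARD3, an enzyme of methionine salvage, was low in both columns, at 0.511 RPKM in upf3-1 and 2.47 RPKM in wild type (−1.55 ± 0.25), as was CRU3, a seed storage protein, at 1.64 against 4.99 RPKM (−1.36).

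Many early stress genes were higher in upf3-1. The list of early stress transcription factors, which are induced within minutes of wounding, touch or microbial signals, had 30 of 32 members described. All 30 were above 0, beside 7898 of all 14079 genes. By the 2-fold rule 12 were higher (40%, beside 3.81% of all genes) and none lower (median 0.86). ERF6 was at 34.4 RPKM in upf3-1 and 7.84 RPKM in wild type (2.06 ± 0.10), WRKY18 at 57.3 against 13.6 RPKM (2.04 ± 0.06) and ERF11 at 15.4 against 3.91 RPKM (1.85 ± 0.14). ERF105 (1.83) is wholly covered by another locus. MYB51, which drives indole glucosinolate synthesis, was at 34.2 against 10.0 RPKM (1.72), and ZAT10 at 46.3 against 21.4 RPKM (1.1). The smallest differences of the list belonged to AT2G28200 (0.08), WRKY70 (0.19), ERF13 (0.20) and ERF4 (0.31). Because a gene could pass the level filter through another column, the count was repeated, a step added after the data were seen, over the 24 members that also averaged 5 RPKM or more in upf3-1 and wild type, and 10 of these were higher (41.7%, beside 3.28% of all genes under that filter). With columns scaled to equal median 9 of the 30 were higher, and all 30 stayed above 0.

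Calmodulin-like and touch genes, which encode calcium sensors and wall enzymes that respond to mechanical stimulation, had 5 of 14 members higher and none lower (35.7% higher, beside 3.81% of all genes, median 0.90). Of the 10 members that also averaged 5 RPKM in upf3-1 and wild type, 4 were higher, and CML37 entered through other columns and was at 0.99 with a pseudocount of 1. Besides CML38 these were CML12 at 182 RPKM in upf3-1 and 58.2 RPKM in wild type (1.64 ± 0.03), the wall enzyme gene TCH4 at 256 against 87.6 RPKM (1.54 ± 0.03), CML37 at 4.46 against 1.74 RPKM (1.15) and CML24 at 127 against 59.4 RPKM (1.09). AT2G41090, at −0.34, was the only member below 0. The stress transcription factors had medians of 2.1 in lba1 upf3-1 minus lba1 and 3.72 in cycloheximide minus mock, and the calmodulin-like and touch genes 1.4 and 2.39. Over all genes the medians of these contrasts were 0.01 and −0.81. Over members that also averaged 5 RPKM in upf3-1 and wild type they were 2.29 and 3.35 for the 24 transcription factors and 1.4 and 2.08 for the 10 calmodulin-like and touch genes, beside −0.08 and −0.94 for all genes under that filter. In lba1 minus wild type the stress transcription factors had a median of −0.83 and the calmodulin-like and touch genes −0.34, beside 0.08 for all genes. In lba1 upf3-1 minus wild type these medians were 1.39 and 1.63, beside 0.12. Both of these contrasts share the wild type column used above.

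Among jasmonate genes 7 of 29 were higher and 2, PDF1.2 and PDF1.2c, were lower (24.1% and 6.90%, beside 3.81% and 0.547% of all genes, median 0.60). JAZ7, a repressor that jasmonate induces, was at 4.54 RPKM in upf3-1 and 0.721 RPKM in wild type (2.05), the lipoxygenase gene LOX4 at 10.5 against 3.03 RPKM (1.64), and the storage proteins VSP1 and VSP2 at 68.5 against 25.9 RPKM (1.39) and 180 against 74.3 RPKM (1.27). The central activator MYC2 was at 25.3 against 24.5 RPKM (0.05), although 98.5% of it overlaps another locus. Over the 23 jasmonate genes with 5 RPKM in the mean of both columns, 3 were higher (13.0%, beside 3.28%). Of 17 described ethylene genes 2, ACS11 and ACS8, were higher (11.8%, beside 3.81% of all genes) and none lower, with a list median of −0.02. Both genes entered through another column, and none of the 12 ethylene genes with 5 RPKM in both columns' mean was higher. The receptor and signalling genes ERS1, ETR2, EIN2, EIN3 and EBF1 lay between −0.24 and −0.02, while CTR1 (0.44) and ERF1 (0.67) lay above 0.

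Most genes of ribosome biogenesis lay below 0. Of 30 described, 29 did so, all but REIL1 (0.05), beside 6176 of all 14079 genes, and the list median was −0.57. By 2-fold 2 were lower (6.67%, beside 0.547%). FIB2, which encodes the nucleolar methyltransferase fibrillarin, was at 8.78 RPKM in upf3-1 and 21.1 RPKM in wild type (−1.22 ± 0.10), and AT5G27120, a NOP56-like gene, at 12.9 against 26.7 RPKM (−1.02 ± 0.07, and −0.99 with a pseudocount of 1). CBF5, the pseudouridine synthase of the nucleolus, was just outside at −0.99 and counted as lower once columns were scaled to equal median. In lba1 upf3-1 against lba1 the list median was 0.01, the same as that of all genes. Against the wild type column it was −0.37 in lba1 and −0.33 in lba1 upf3-1, beside 0.08 and 0.12 for all genes. The 6 described genes of DNA replication were also all below 0 (median −0.70), led by TSO2, a ribonucleotide reductase subunit, at 31.7 against 60.4 RPKM (−0.92) and PCNA1 at 6.69 against 11.5 RPKM (−0.74). Only 2 of 18 genes of mitosis were described, CDC20.1 (−0.83) and KNOLLE (−0.75). Of 11 hypoxia genes 2 were lower, where 0.547% of all genes were, with a list median of −0.20. These were the sucrose synthase gene SUS4 at 5.88 against 14.9 RPKM (−1.27) and PDC1, of ethanol fermentation, at 11.0 against 25.5 RPKM (−1.17). ADH1, which acts after PDC1, was at −0.61, and HRE1 (0.79), LBD41 (0.36), HRE2 (0.35) and HB1 (0.22) were above 0.

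Within the photosynthesis list the 2 components differed in direction. The 4 Rubisco small subunit genes were below 0 (2 of them under quantile normalization), with RBCS2B at 2880 RPKM in upf3-1 and 4427 RPKM in wild type (−0.62), RBCS1B at −0.59, RBCS3B at −0.39 and RBCS1A at −0.28. The light harvesting genes, which encode the antenna proteins of the photosystems, lay above 0 except LHCB4.3 (−0.75), and LHCB1.1 under quantile normalization. LHCB1.2 was at 1505 against 674 RPKM (1.16 ± 0.01) and LHCB1.4 at 785 against 359 RPKM (1.13 ± 0.02). The LHCB1 copies are near-identical and LHCB1.3, at 3495 against 3104 RPKM, differed by 0.17. How reads were assigned among them is not given. LHCB1.4 fell short of 2-fold under quantile normalization (0.97). The list median of 0.65 became 0.35 under quantile normalization, where RBCS1A and RBCS3B were at 0.00 and LHCB1.1 at −0.17 instead of 0.18.

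Auxin response genes had 4 of 18 higher and none lower (22.2% higher, beside 3.81% of all genes, median 0.48). Of the 12 that also averaged 5 RPKM in upf3-1 and wild type 3 were higher (25%, beside 3.28%), and IAA6 entered through another column. The count of 4 became 3 under both scalings, where SAUR21 was at 0.95, and with a pseudocount of 1 SAUR21 (0.97) and IAA6 (0.87) fell short of 2-fold. IAA3 was at 61.4 RPKM in upf3-1 and 18.9 RPKM in wild type (1.68), IAA2 at 119 against 53.5 RPKM (1.15), IAA6 at 1.66 against 0.456 RPKM (1.17) and SAUR21 at 13.0 against 6.18 RPKM (1.02). IAA genes encode repressors that auxin induces. The GH3 genes, which encode auxin-conjugating enzymes, lay between −0.21 and 0.41. Among clock genes 1 of 14 was higher (7.14%, beside 3.81% of all genes), PRR9 at 7.82 against 3.37 RPKM (1.11). Of these 14 genes 12 were above 0, beside 7898 of all 14079 genes (11 of the 14 with columns scaled to equal median). BAM5, a sugar-induced beta-amylase, was at 153 against 59.2 RPKM (1.36), and the low-sugar marker ASN1 at 7.57 against 7.21 RPKM (0.07). Of 12 phosphate starvation genes 2 were higher (16.7%, beside 3.81%). RNS1 (14.5 against 5.49 RPKM, 1.32) and AT4 (200 against 86.1 RPKM, 1.21) were these, and IPS1 and SPX1 were at −0.16 and 0.22.

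Salicylic acid defence showed little difference at 2-fold. PAD4, a regulator of this pathway, was the only higher gene of 19 (5.26%, beside 3.81%), at 15.4 RPKM in upf3-1 and 6.93 RPKM in wild type (1.09). PR1, the standard marker, was at 56.4 against 113 RPKM (−0.99) and PR2 at 41.8 against 22.1 RPKM (0.90), so the 2 markers differed in sign. ICS1, which makes salicylic acid, was at 6.43 against 5.79 RPKM (0.14). With columns scaled to equal median PR1 passed the 2-fold limit as lower. No heat shock gene of 10 differed by 2-fold, with HSP18.2 at 0.99 and HSP70 at −0.61. Splicing regulators, a group with many known NMD-sensitive splice forms, had 1 of 23 described members higher (4.35%, beside 3.81% of all genes). This was RS40, at 28.8 against 13.5 RPKM (1.06 ± 0.06). RS31A (0.91) and TFIIIA (0.76) followed, while SR45 (−0.48) and PTB3 (−0.46) were the lowest. Of the 23 members, 10 were below 0, and the median was 0.07. RS40 fell short of 2-fold with columns scaled to equal median. RPKM per gene adds up all splice forms, so a change of one form can be hidden in it.

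**Figure D3:**
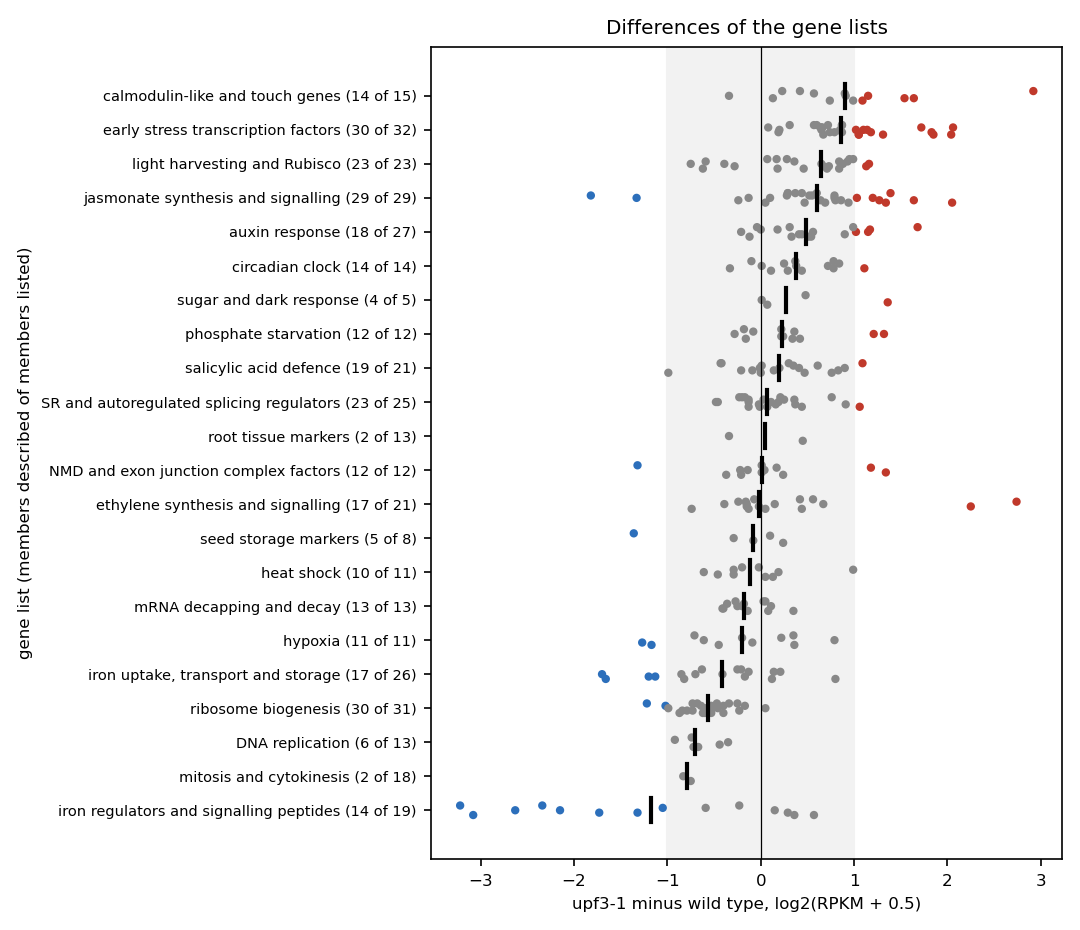
Difference of each described list member between upf3-1 and wild type, log2(RPKM + 0.5), in 22 gene lists ordered by their median (black bars). Red points are at least 2-fold higher and blue points at least 2-fold lower in upf3-1, the shaded band marks less than 2-fold, and the 2 iron lists hold 12 blue points while calmodulin-like and stress transcription factor genes lie mostly above 0.

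Non-coding RNAs and pseudogenes held a larger share of higher genes than coding genes did. Of 394 loci annotated as ncRNA or lncRNA, 78 were described, 30 of them higher in upf3-1 and none lower (38.5%, median 0.70). Among 13804 coding genes the share was 3.44% (475 higher, 75 lower, median 0.05). Counting only loci that averaged 5 RPKM over upf3-1 and wild type, 24 of 64 non-coding loci were higher (37.5%), beside 2.99% of coding genes. Of the 51 that overlap no other locus, 22 were higher (43.1%). The share thus stayed between 37.5% and 43.1% under these filters. A shift of these classes was also present in lba1 minus wild type, which shares the wild type column. The medians there were 0.86 for ncRNA and lncRNA loci and 0.77 for pseudogenes, beside 0.08 for coding genes. In lba1 upf3-1 minus lba1, which shares no column, they were 0.33 and 0.02, beside 0.01 for coding genes. Over loci that also averaged 5 RPKM in upf3-1 and wild type they were 0.28 and −0.17 in that contrast, beside −0.08. In cycloheximide minus mock they were −1.52 and −0.67 over all described loci of these classes, beside −0.81 for coding genes.

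AT3G26612, annotated only as other RNA, was at 23.8 RPKM in upf3-1 and 3.19 RPKM in wild type (2.72 ± 0.17), at 65.1 RPKM in lba1 upf3-1 and 24.1 RPKM in lba1, and at 12.7 RPKM with cycloheximide and 3.45 RPKM in mock. AT1G11175 was at 48.4 against 6.98 RPKM (2.71 ± 0.13), and at 79.3 RPKM in lba1 upf3-1 and 38.9 RPKM in lba1. With cycloheximide it was at 1.34 RPKM, below mock at 7.73 RPKM. AT5G38005 (2.64), AT3G61198 (2.54) and AT2G32795 (2.49) were the next highest. AT5G38005 was at 8.21 RPKM in upf3-1, 6.26 RPKM in lba1 and 0.894 RPKM in wild type, and AT2G32795 at 11.4, 10.5 and 1.63 RPKM in these columns. Of these 2 loci, AT5G38005 entered through its lba1 upf3-1 column (24.6 RPKM). The highest lncRNA loci were AT1G67365 at 11.8 against 3.27 RPKM (1.70), AT1G56612 (1.5), AT2G26355 at 53.7 against 19.1 RPKM (1.47) and AT4G38932 at 78.9 against 29.2 RPKM (1.42). The lowest ncRNA was AT3G12965 (−0.42), and TAS3, the precursor of small RNAs that target auxin response factors, was at 20.8 against 25.9 RPKM (−0.31).

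Of 92 described pseudogenes of both annotated kinds, 28 were higher and 1 was lower (30.4% higher, median 0.57), and of the 64 with 5 RPKM in both columns' mean 17 were higher (26.6%). CYP71B18 was at 51.6 RPKM in upf3-1 and 10.6 RPKM in wild type (2.24 ± 0.07) and RABA4E at 12.8 against 2.38 RPKM (2.2 ± 0.20). AT3G48650, at 7.97 against 1.79 RPKM (1.89), reached 170 RPKM in lba1 upf3-1 and 0.494 RPKM in lba1. It entered through its lba1 upf3-1 and cycloheximide (232 RPKM) columns, so its high level on the lba1 background comes from a column that admitted it. SADHU elements, a family of retroposed sequences in Arabidopsis, had 5 of 15 members described. All 5 were above 0, beside 7898 of all 14079 genes, and 3 were higher (60%, beside 3.81%). Of the 4 that also averaged 5 RPKM in upf3-1 and wild type, 2 were higher (50%, beside 3.28%). SADHU1-1 was at 170 against 52.9 RPKM (1.68 ± 0.05), SADHU1-3 at 9.84 against 1.65 RPKM (2.27) and SADHU3-2 at 3.46 against 0.531 RPKM (1.94). SADHU3-2 entered only through its lba1 upf3-1 column, at 27.9 RPKM. The family members are related in sequence, so reads could be shared. AT1G20390 was the lower one, at 4.61 against 10.8 RPKM (−1.14).

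Among snoRNA loci none was higher. Of 21 described snoRNA loci, whose products guide the modification of ribosomal RNA, 19 were below 0 (median −0.27) and all 21 were once columns were scaled to equal median, beside 6176 of all 14079 genes. One was lower by 2-fold (4.76%, beside 0.547%), AT2G35742 at 1.91 RPKM in upf3-1 and 7.23 RPKM in wild type (−1.68 ± 0.71). It entered through another column, and none of the 19 snoRNA loci that also averaged 5 RPKM in upf3-1 and wild type was lower. Of 10 described miRNA precursors 8 were above 0 (median 0.35), and MIR833a was the 1 higher by the 2-fold rule, at 13.3 against 6.34 RPKM (1.01 ± 0.32), and 45.5% of it overlaps another locus. It fell short of 2-fold with a pseudocount of 1 (0.96), with equal medians (0.94) and after quantile normalization (0.93). The precursor of MIR162a, whose product targets the DCL1 mRNA, was at 8.79 against 5.37 RPKM (0.66 ± 0.41), and MIR159b at 6.04 against 8.87 RPKM (−0.52 ± 0.34). All 4 described tRNA loci were above 0 (median 0.44), beside 7898 of all 14079 genes, and none by 2-fold. The counting interval included 0 for all of them but AT5G46105 (0.36 ± 0.32). AT5G60285 (0.74 ± 1.03) and AT5G43455 (0.51 ± 1.04) entered through other columns. The kit enriches polyadenylated RNA, so these values do not measure mature small RNAs.

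An exon junction more than 50 bases after the stop codon, one of the features that marks NMD targets, was read from the reference annotation. This class was chosen after the data were seen. Of 84 described coding genes whose every annotated transcript has one, 4 were higher and 1 was lower (4.76% higher, median 0.11). Among the higher ones were AT3G45443 at 34.0 RPKM in upf3-1 and 4.82 RPKM in wild type (2.70), AT5G46500 at 8.31 against 3.57 RPKM (1.11) and RPD1 at 18 against 8.09 RPKM (1.11), and the lower one was the iron list gene AT2G30766. Of 12489 genes with no such transcript 433 were higher (3.47%, median 0.04). The shares of the classes were thus close to the 3.81% of all genes, and 1231 genes with such a junction in some transcripts lay at 3.09%.

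**Figure D4:**
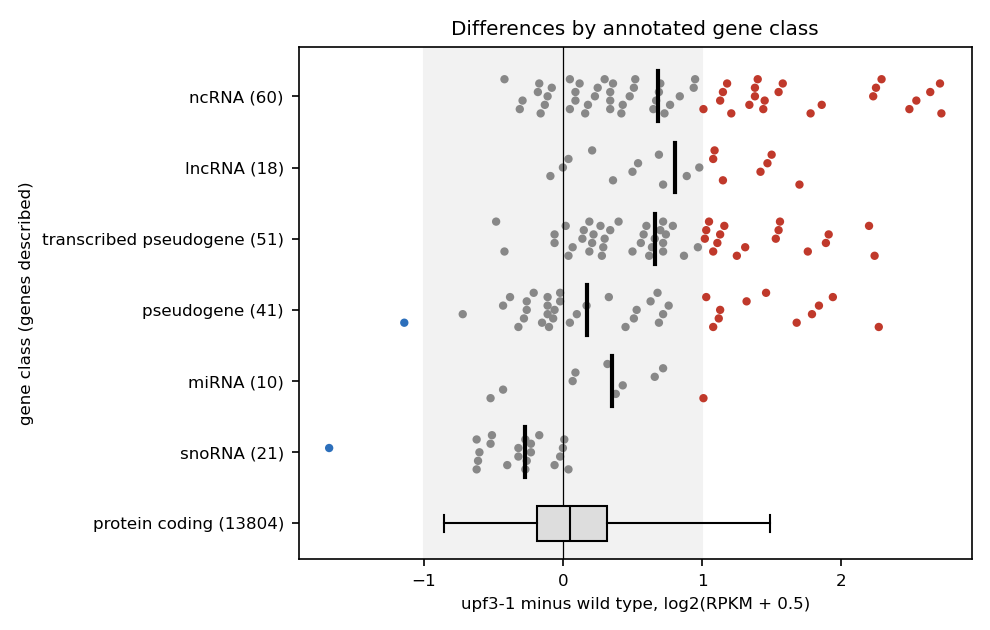
Difference between upf3-1 and wild type, log2(RPKM + 0.5), of every described gene in 6 annotated non-coding and pseudogene classes (points, with the class median as a black bar), and for the 13804 coding genes a box with the median and quartiles and whiskers at the percentiles 1 and 99. Red points are at least 2-fold higher and blue points at least 2-fold lower, and ncRNA and lncRNA hold 30 red and no blue points while 19 of 21 snoRNA points lie below 0.

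The same allele contrast on the lba1 background gave the same sign for most of these genes. Of the 536 higher genes, 400 were above 0 in lba1 upf3-1 minus lba1 (74.6%, beside 50.3% of all genes), and 259 were at least 2-fold higher (48.3%, beside 17.7%). Of the 77 lower genes, 65 were below 0 (84.4%) and 53 were at least 2-fold lower (68.8%, beside 22.1%). The overlap made up 10.4% of the 2492 higher genes of that contrast and 1.70% of its 3109 lower genes. The medians in that contrast were 0.95 over the 536 genes and −1.94 over the 77. Across the 14079 genes, which are not independent replicates, Pearson's r between both contrasts was 0.29 and Spearman's rho 0.32. Genes high in lba1 upf3-1 alone can pass a filter over 6 columns. Over the 12438 described genes that also reached 5 RPKM in the mean of upf3-1 and wild type, 43.1% of 408 higher genes were higher in that contrast too, beside 13.6% of all genes.

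Cycloheximide against mock was set beside it in the same way. Of the 536 genes, 230 were at least 2-fold higher with cycloheximide (42.9%, beside 13.3% of all genes), and of the 77 lower genes 42 were at least 2-fold lower (54.5%, beside 44.1%). They were 12.3% of the 1870 higher genes of that contrast and 0.676% of its 6209 lower genes, and r was 0.32 and rho 0.30 across genes. Under the filter over both columns 34.6% of the higher genes were higher, beside 8.84% of all. Coding and non-coding genes are given apart here. Of the 475 higher coding genes 219 were higher with cycloheximide (46.1%, median 0.75), beside 13.3% of all 13804 coding genes, and of the 30 higher ncRNA and lncRNA loci 5 were (16.7%, median −0.87), beside 10 of all 78 described loci of that kind (12.8%). On the lba1 background the shares were 49.5% for the coding genes, beside 17.7% of all coding genes, and 43.3% for the ncRNA and lncRNA loci, beside 25.6% of all 78.

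Higher in all 3 contrasts were 144 genes, 26.9% of the 536, where 5.42% of all genes were higher in both other contrasts. Of the 408 higher genes that also averaged 5 RPKM in upf3-1 and wild type 85 were (20.8%, beside 2.85%). CML38 was at 47.3 RPKM in lba1 upf3-1 against 1.89 RPKM in lba1, and at 1005 RPKM with cycloheximide against 33.0 RPKM in mock. WRKY18, a regulator of defence and stress genes, was at 112 RPKM in lba1 upf3-1 against 5.65 RPKM in lba1, and at 1255 RPKM with cycloheximide against 72.1 RPKM in mock. The other genes with the largest shared differences were JAZ7, the EF-hand calcium-binding gene AT3G29000 (1.93), the wall enzyme gene XTH18 (46.7 RPKM in upf3-1 against 11.9 RPKM in wild type, 1.93), the inositol oxygenase gene MIOX1 (18.1 against 4.49 RPKM, 1.90), AT1G35210 (2.01) and AT5G64450 (2.00). JAZ7 and AT5G64450 entered only through other columns. Lower in all 3 were 30 genes, 39.0% of the 77, beside 11.4% of all genes lower in both others, and these 30 were 44.1% of the 68 lower genes under the filter over both columns, beside 12.8%.

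**Figure D5:**
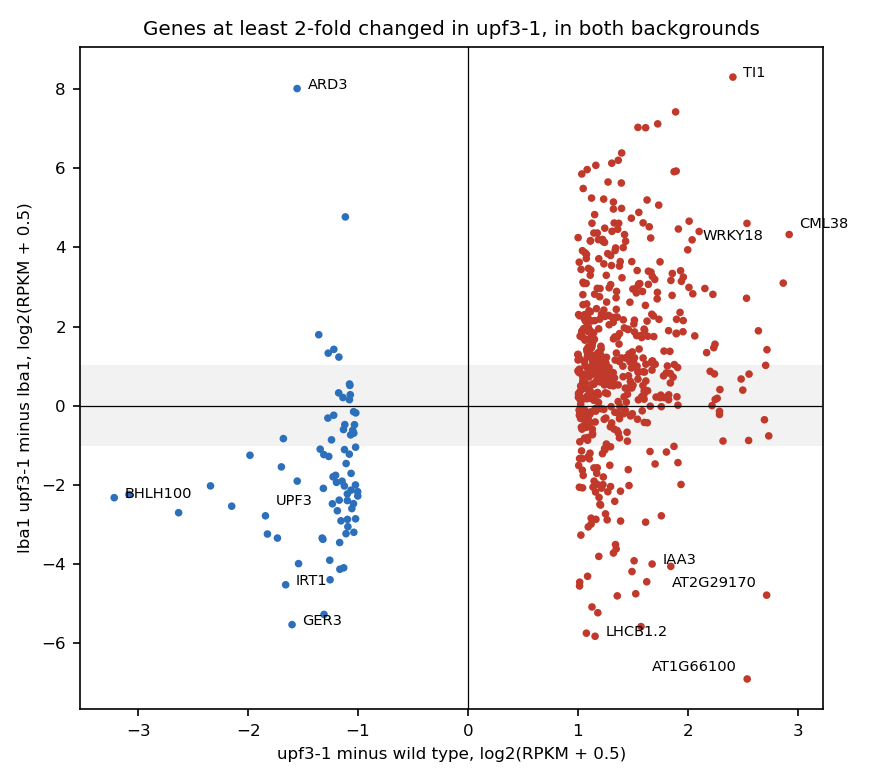
Difference in lba1 upf3-1 minus lba1 (vertical axis) against that in upf3-1 minus wild type (horizontal axis), both log2(RPKM + 0.5), for the 613 genes at least 2-fold changed in upf3-1, 1 pooled column per group. Of the 536 red genes, higher in upf3-1, 400 lie above 0 on the vertical axis, and of the 77 blue genes, lower in upf3-1, 65 lie below it.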

How the data were processed

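Gene expression was analysed from the table of RPKM values that the authors deposited for 33602 loci, with 1 pooled column per group of 2 libraries. The submitters' processing notes name the build TAIR10. Libraries were made from total RNA with the TruSeq RNA kit, per the labels' protocols. How reads were aligned and counted, which gene lengths were used and how libraries were pooled is not given in the sources used here. Names, classes, overlaps and stop codon distances came from the TAIR10.1 annotation (32835 loci matched, 767 did not).

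Differences of log2(RPKM + 0.5) were computed in Python 3.11.15 with pandas 2.3.3 and numpy 2.4.6 for genes averaging 5 RPKM or more. The 2-fold rule was run on simulated counts with counting error only. These hold no spread between replicates, so they cannot show how the rule behaves with it. Implied depths were 83.1 to 91.5 M reads per column, and 3 reads equal 0.0328 to 0.0361 RPKM at 1 kb. Named genes were NMD factors, the 20 highest and 20 lowest, the 5 highest and 5 lowest at 100 RPKM or more, iron genes, up to 4 per other list, the extremes of each non-coding class and 8 shared by 3 contrasts, some left out for length and an item not reported here. A few further list members and 2 genes beside each limit are also named. The members and 22 lists (399 genes) were chosen with earlier results of these data known. Alternatives were other pseudocounts, filters and scalings.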

Additional observations from a re-analysis of the deposited data

Results flagged for a closer look

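Of the 536 genes higher in upf3-1, 72 (13.4%, beside 22.1% of all genes) were at least 2-fold lower in lba1 upf3-1 than in lba1, and of the 77 lower genes 6 (7.79%, beside 17.7%) were at least 2-fold higher there. Both shares lay below those of all genes. For 15 genes named by the rule, and for VSP2, both differences of log2(RPKM + 0.5) passed 2-fold with opposite signs. Each contrast has 1 column per group, so the difference between the contrasts was not tested.

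The defence and stress genes among them were AT1G66100, a thionin gene (−6.91 for lba1 upf3-1 minus lba1, 2.54 for upf3-1 minus wild type), KIN2 (−1.44, 1.91 in the same order), VSP1 (−2.16, 1.39) and VSP2 (−2.17, 1.27). AT1G66100 stood at 107 RPKM in upf3-1 and 18 RPKM in wild type, but at 0.053 RPKM in lba1 upf3-1 and 66.0 RPKM in lba1. The auxin genes were IAA3 (−4.0, 1.68), IAA6 (−1.99, 1.17), IAA2 (−1.91, 1.15) and SAUR21 (−4.46, 1.02). Both light harvesting genes past 2-fold were of this kind, LHCB1.2 (−5.83, 1.16) and LHCB1.4 (−5.09, 1.13), though LHCB1.4 was at 0.97 in upf3-1 minus wild type under quantile normalization. The whole list had a median of −4.83 in lba1 upf3-1 minus lba1. AT2G29170, annotated as a Rossmann-fold protein, was at −4.79 and 2.72, the glucosinolate gene AOP2, annotated as a transcribed pseudogene, at −2.78 and 1.76, and the precursor MIR833a at −1.51 and 1.01.

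In the other direction lay ARD3 (8.01, −1.55), with 212 RPKM in lba1 upf3-1 and 0.323 RPKM in lba1, the seed storage gene CRU3 (1.79, −1.36) and the fermentation gene PDC1 (1.23, −1.17). ARD3 passed the level filter only through its lba1 upf3-1 column and CRU3 through its lba1 and lba1 upf3-1 columns, so their sign on that background comes from columns that admitted them. IAA6 passed only through its cycloheximide column.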

How the results depend on the processing

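The count of 536 higher genes ranged from 390 to 756 over the settings tried, and stayed within 1.5 times. The 77 lower genes became 162 with no filter, 152 with a mean of at least 1 RPKM and 41 with at least 10 RPKM. Scaling columns to equal median gave 468 higher and 98 lower genes, and quantile normalization 483 and 107, with 82.7% and 81.9% higher. UPF3 kept its direction and size under both pseudocounts and both scalings. Of 97 named genes past 2-fold, 97 stayed so with a pseudocount of 0.1, 92 with 1 (AT5G27120, CML37, IAA6, SAUR21 and MIR833a were lost), 94 with equal medians (RS40, SAUR21 and MIR833a were lost) and 93 after quantile normalization (the same 3 and LHCB1.4 were lost). The medians of the NMD factors (0.01) and root markers (0.05) turned negative under both scalings (−0.05 and −0.07, and −0.01 under each). Where the 5 RPKM filter took the mean of upf3-1 and wild type alone (12890 genes, 415 higher and 82 lower), 368 of 497 genes (74.0%) had the same sign on the lba1 background and 291 (58.6%) with cycloheximide, beside 465 (75.9%) and 381 (62.2%) of 613, a step added after the data were seen. No paired analysis was possible because each group is 1 pooled column, and for that reason no replicate could be left out. Depth limits the shortest and lowest genes: the half-width of the counting interval was 0.11 in the median and 0.29 at percentile 95 of the genes past 2-fold.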

Other observations

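Plastid and mitochondrial loci, 52 of those described, held no gene past 2-fold in upf3-1 against wild type, where 4.35% of all genes were. The 4 ribosomal RNA loci, in polyadenylated RNA, differed by 0.06 to 0.19 on the log2 scale. Of the 767 loci not matched in the annotation, 66 were described, and 2 of these were higher (3.03%, beside 3.81% of all genes).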
